A study of Mus musculus with 13 samples.

Results

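The 10 genes described here code for proteins of the contractile apparatus of smooth muscle, which in the testis is found in the peritubular myoid cells and in the walls of blood vessels. They were taken by name (Acta2, Actg2, Myh11, Myl9, Cnn1, Cnn3, Tagln, Des, Tpm1 and Tpm2) from a table of 25965 genes, and all 10 were listed and had reads in every library. RNA of whole testis was sequenced in 13 mouse libraries at 15 weeks of age, after the tunica albuginea had been taken off, from about 2 ng of total RNA each by Smart-seq2, a full-length method that amplifies complementary DNA by PCR. There were 3 wild-type libraries (WT), 4 of genotype Wfdc15a+/- (Het) and 6 of genotype Wfdc15a-/- (KO). The study's design text takes WT and Het together as control (n = 7) and sets them against KO (n = 6) to learn what Wfdc15a does in spermatogenesis. The titles also hold a number, 1 or 2, and no source used here explains it. The number is 2 in WT, 1 in Het replicate 1, 2 in Het replicates 2 to 4, 1 in KO replicates 1 to 3 and 2 in KO replicates 4 to 6. Nor does any of them give the design of the allele, the strain or the litters.

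Peritubular myoid cells form a thin muscular sheath around each seminiferous tubule, and their contractions move fluid and released sperm toward the rete testis. In smooth muscle, calcium bound to calmodulin activates myosin light chain kinase, which phosphorylates the regulatory light chain and lets myosin pull on actin. Tropomyosins and calponins sit along the actin filament, and desmin filaments tie the apparatus together. Acta2, the actin of vascular smooth muscle, is the usual marker of myoid cells, while Actg2, the actin of visceral smooth muscle, is also known to be transcribed in haploid germ cells of the mouse testis.

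The libraries had a depth of 4.51 to 11.1 M reads, and 18583 to 19426 genes had at least 1 read. Values are RPM, reads scaled by the authors to library size, and 1 read was worth 0.0899 to 0.222 RPM. For Wfdc15a itself the control mean was 65.5 ± 12.5 RPM (SD, n = 7) and the KO mean 44.6 ± 21.8 RPM (n = 6) (log2 difference -0.66, two-sided exact permutation p = 0.0338). It was at 28.1 ± 7.60 RPM (n = 3) in KO libraries of number 1 and at 61.2 ± 17.7 RPM (n = 3) in those of number 2, where the control range was 53.5 to 85.8 RPM. Because the targeted gene overlaps between the groups, KO libraries are named by their label throughout, and each direction rests on that label. All differences below are log2 differences of RPM + 1, KO minus control unless another pair is named, from limma fits over the 16235 genes whose mean reached 1 RPM. Adjusted p-values are Benjamini-Hochberg values over all of these genes, with a threshold of 0.05. Libraries were taken as separate mice because the design text counts mice.

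Of the 10 genes, 4 rose in the libraries labelled KO, namely Cnn3, Tpm1, Myl9 and Myh11, and 1 fell, Actg2. The other 5 (Acta2, Cnn1, Tagln, Des and Tpm2) did not pass the test. Over all genes tested, 18.4% were called higher and 6.18% lower. The median difference was 0.55 over the 10 genes and 0.16 over all genes tested. The split of calls over all genes moved with the scaling: 74.9% of the called genes were higher as deposited, 49.9% with median-of-ratios scaling and 48.8% with quantile normalization, where the median of all genes was 0.022 and -0.0070. With median-of-ratios scaling the same 5 genes passed in the same directions, and with quantile normalization Myh11 did not (0.48, adjusted p = 0.131). In bulk RNA, a change in the number of cells of a type and a change in the RNA per cell cannot be told apart. Within-group spread differed widely, with a coefficient of variation in the controls of 6.53% for Actg2 and 64.1% for Cnn3.

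**Figure D1:**
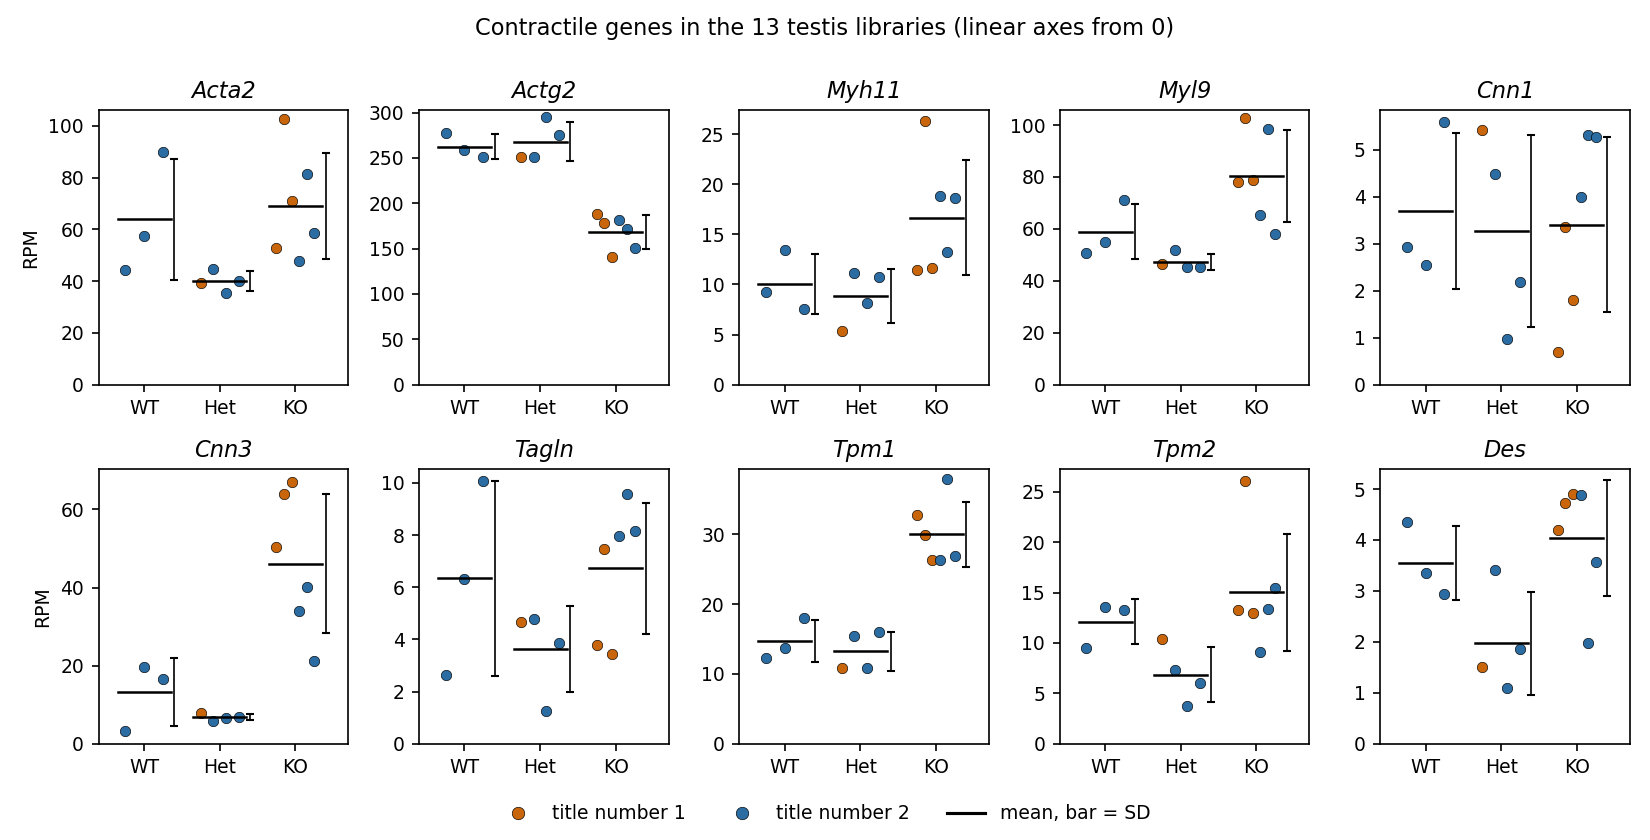
RPM of each of the 10 genes (linear axes from 0) in the WT, Het and KO libraries, with 1 point per library, orange for title number 1 and blue for number 2, a line at the group mean and a bar of 1 SD. Actg2 lay at 141 to 188 RPM in all 6 libraries labelled KO and at 251 to 295 RPM in all 7 controls, while Cnn3 and Tpm1 lay above all controls in all 6.

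Of the 2 actins, only Actg2 was called. Actg2 (chr6:83512905-83536265, mm10, minus strand) had the highest level per length of exon of the 10 genes. It was at 278, 258 and 251 RPM in the 3 WT libraries and at 251, 251, 295 and 275 RPM in the 4 Het libraries. In the libraries labelled KO it was at 188, 179 and 141 RPM for number 1 and at 181, 172 and 150 RPM for number 2. No library labelled KO reached the lowest control, and both title numbers lay in the same range. The mean of the controls was 265 ± 17.3 RPM (SD, n = 7) and that of the KO label 169 ± 18.8 RPM (n = 6), 1.58-fold lower (log2 -0.66, SE 0.0815, limma adjusted p = 1.23e-05). Without any 1 library the difference stayed between -0.69 and -0.61 and passed the test. A list of 15 genes, called late spermatid here, fell in the same libraries, with 15 of 15 lower and a median of -1.04. Its summed level was 9802 to 13764 RPM against 19799 to 24780 RPM in the controls. The stages at which each of these genes is transcribed were not tested. The part of late spermatids in the Actg2 result was not tested either.

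Acta2 (chr19:34241090-34255336, minus strand) did not pass the test. It was at 44.3, 57.5 and 89.9 RPM in WT and at 39.4, 44.8, 35.4 and 39.9 RPM in Het. The libraries labelled KO ranged from 47.6 to 103 RPM with a median of 64.8 RPM. WT replicate 3 was higher than all but 1 of the libraries labelled KO, and the 4 Het libraries were lower than all of them. The difference from the controls was 0.47 (SE 0.194, limma adjusted p = 0.0809). It passed without WT replicate 3 (0.62, adjusted p = 0.00918) or without KO replicate 4 (0.56, adjusted p = 0.0424). The log2 ratio of Acta2 to Actg2 went from -2.44 ± 0.506 (SD, n = 7) to -1.32 ± 0.457 (n = 6). That difference of 1.13 passed a two-sided exact permutation test (p = 0.00408, adjusted over 5 ratios 0.0102). With the libraries of title number 2 alone it was 0.97 and did not pass (exact permutation test, adjusted p = 0.179).

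The 2 transcripts are alike, so the stretch where the coding sequences end is shown to let the reader see how reads can be told apart. In GENCODE release 21 transcripts the coding sequences of Acta2 and Actg2 were identical at 83.8% of 1131 bases, compared from the stop codon, and the longest identical stretch had 29 bases. The last 60 coding bases, stop codon included, lie in exon 9 of both genes, for Acta2 at chr19:34241667-34241726 and for Actg2 at chr6:83512985-83513044 (GRCm38, minus strand). Capitals mark the 11 bases that differ.
Acta2: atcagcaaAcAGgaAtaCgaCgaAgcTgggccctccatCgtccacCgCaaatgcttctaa
Actg2: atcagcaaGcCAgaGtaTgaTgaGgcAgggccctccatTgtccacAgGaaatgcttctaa
The other actins of muscle, skeletal Acta1 and cardiac Actc1, were near 0, with at most 9 and 3 reads in any library. How the counting treated reads shared between actins is not known here.

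Both myosin genes rose. Myl9 (chr2:156775420-156781658, plus strand), the regulatory light chain that myosin light chain kinase phosphorylates, was at 50.8, 55.1 and 71.0 RPM in WT and at 46.6, 51.9, 45.4 and 45.1 RPM in Het. It was at 78.2, 103 and 79.0 RPM in the libraries labelled KO of number 1 and at 65.4, 98.4 and 58.0 RPM in those of number 2. All but KO replicates 4 and 6 lay above every control. The mean went from 52.3 ± 9.04 RPM (SD, n = 7) to 80.3 ± 17.7 RPM (n = 6), a difference of 0.60 (SE 0.137, limma adjusted p = 0.00324). With libraries of title number 2 alone the difference was 0.45 and did not pass (adjusted p = 0.118).

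Myh11 (chr16:14194527-14291408, minus strand), the heavy chain of smooth muscle myosin, was at 9.21, 13.4 and 7.56 RPM in WT and at 5.30, 11.1, 8.12 and 10.8 RPM in Het. In the libraries labelled KO it was at 11.5, 26.3 and 11.6 RPM for number 1 and at 18.8, 13.2 and 18.6 RPM for number 2. KO replicates 2, 4 and 6 lay above every control and the other 3 within the control range. The difference was 0.75 (SE 0.221, limma adjusted p = 0.0162), from 9.36 ± 2.67 RPM (SD, n = 7) to 16.7 ± 5.77 RPM (n = 6). It was lost with title number 2 alone (0.70, adjusted p = 0.0652). The ratio of Myh11 to Myh9, the broadly expressed non-muscle heavy chain, had a log2 mean of 1.04 ± 0.64 over controls (SD, n = 7) and of 0.92 ± 0.74 over libraries labelled KO (n = 6). This difference did not pass (two-sided exact permutation p = 0.760).

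Many smooth muscle promoters carry the CArG box, the element bound by serum response factor: CC, then 6 letters that are each A or T, then GG, which reads in this form on both strands. The RefSeq promoter table (GRCm38.p6) holds 300 bases for each start site, 250 of them before it, and 7 of the 10 genes were in it (Actg2, Tagln and Myh11 are not). Myl9 was the only 1 of the 7 with the box, and Myl9 and Acta2 were the only 2 of the 7 with the box or a form in which 1 inner letter is C or G. Over all 32851 promoters there, 1.63% held the box and 9.98% the box or the looser form. These sites are shown because Myl9 and Acta2 held them within this window and the other 5 genes did not. Bases outside the window were not searched, and the counts over 7 genes were not tested against the shares of all promoters. Capitals mark the 10 bases of the box, on the strand of the gene. The exact box of Myl9 is the first (chr2:156775293-156775322, box starting 161 bases before the start site), and the second differs at 1 inner letter (chr2:156775355-156775384, 99 bases before). The Acta2 sites both differ at 1 inner letter (chr19:34255438-34255467, 84 bases before, and chr19:34255388-34255417, 34 bases before). The annotation of GENCODE release 21 starts Acta2 at 34255590, so both Acta2 sites lie within the span of the gene there.
Myl9 first: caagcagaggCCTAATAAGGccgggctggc
Myl9 second: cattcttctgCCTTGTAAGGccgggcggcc
Acta2 first: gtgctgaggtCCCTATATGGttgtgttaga
Acta2 second: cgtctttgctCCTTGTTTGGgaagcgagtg
A match of letters is a description and shows no binding. The motif TATAAA, on either strand, was in 0 of the 7 windows and in 13.6% of the table.

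The calponins differed most from each other. Cnn3 (chr3:121426541-121458205, plus strand), the calponin also made outside muscle, showed the largest difference of the 10 genes. It was at 3.24, 19.6 and 16.7 RPM in WT and at 7.83, 5.84, 6.61 and 6.91 RPM in Het. It was at 50.3, 64.0 and 67.1 RPM in the libraries labelled KO of number 1 and at 33.9, 40.2 and 21.1 RPM in those of number 2. All 6 lay above all 7 controls, though KO replicate 6 exceeded WT replicate 2 by little. The mean went from 9.52 ± 6.10 RPM (SD, n = 7) to 46.1 ± 17.8 RPM (n = 6), a 4.78-fold rise (log2 2.26, SE 0.315, limma adjusted p = 3.65e-05). Among all genes tested, 5.06% had every library labelled KO above every control and 2.89% had every one below. Of the 10 genes, Cnn3 and Tpm1 were of the first kind and Actg2 of the second.

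Cnn1 (chr9:22099281-22109630, plus strand) is the calponin of differentiated smooth muscle. Its mean was 3.45 ± 1.75 RPM over controls (SD, n = 7) and 3.41 ± 1.87 RPM over libraries labelled KO (n = 6). The difference was -0.045 (SE 0.337, limma adjusted p = 0.940), and it rested on 5 to 50 reads per library. Its sign turned without any 1 of WT replicate 3, Het replicates 1 and 2 and KO replicates 1 and 3 (range over left-out libraries -0.22 to 0.20). The log2 ratio of Cnn1 to Cnn3 fell by 2.30, from -1.16 ± 0.906 (n = 7) to -3.46 ± 1.21 (n = 6), with a two-sided exact permutation p = 0.00291 (adjusted over 5 ratios 0.0102). With title number 2 alone the difference was -1.17 and did not pass (exact permutation test, adjusted p = 0.179).

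Tagln (chr9:45929628-45936058, minus strand) codes for transgelin, an actin-bundling relative of calponin. It was at 2.63, 6.30 and 10.1 RPM in WT, at 4.67, 4.76, 1.24 and 3.87 RPM in Het, and at 3.43 to 9.57 RPM with a median of 7.72 RPM in the libraries labelled KO. The groups overlapped throughout, and the difference was 0.49 (SE 0.316, limma adjusted p = 0.270). By position Tagln shares 65 bases with Pcsk7 on the other strand, which had a mean of 16.3 RPM. Whether the counting used strand is not known here, so reads of such pairs cannot be told apart.

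Of the tropomyosins, the coiled coils that lie along actin, Tpm1 rose. Tpm1 (chr9:67022590-67049406, minus strand) was at 12.3, 13.7 and 18.1 RPM in WT and at 10.9, 15.4, 10.9 and 16.0 RPM in Het. It was at 32.8, 29.9 and 26.3 RPM in the libraries labelled KO of number 1 and at 26.4, 38.0 and 26.9 RPM in those of number 2. Both title numbers lay above all controls and in one range. The rise was 2.10-fold (log2 1.07, SE 0.153, limma adjusted p = 4.80e-05), from 13.9 ± 2.73 RPM (SD, n = 7) to 30.0 ± 4.64 RPM (n = 6). The gene makes several isoforms, some of them outside muscle, and the table gives 1 value for all of them.

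Tpm2 (chr4:43514711-43523765, minus strand) was at 9.51, 13.5 and 13.3 RPM in WT, at 10.4, 7.28, 3.72 and 6.06 RPM in Het, and at 9.08 to 26.1 RPM with a median of 13.3 RPM in the libraries labelled KO. KO replicate 2 stood well above the rest. The difference was 0.69 (SE 0.260, limma adjusted p = 0.0568). It passed with limma-voom on reads (0.81, adjusted p = 0.0391) and without WT replicate 2 (adjusted p = 0.0328), WT replicate 3 (0.0336) or KO replicate 4 (0.0317). The ratio of Tpm1 to Tpm2 differed by 0.38 on the log2 scale and did not pass (two-sided exact permutation p = 0.217).

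Des (chr1:75360329-75368579, plus strand) codes for desmin, the intermediate filament of muscle. It had 8 to 43 reads per library and went from 2.65 ± 1.18 RPM (SD, n = 7) to 4.04 ± 1.14 RPM (n = 6), a difference of 0.50 (SE 0.264, limma adjusted p = 0.177). By position it shares 368 bases with Gm15179 on the other strand, which had a mean of 0.610 RPM. Vim, the intermediate filament of most mesenchymal and Sertoli cells, rose from 55.7 ± 15.9 RPM to 119 ± 19.4 RPM (log2 1.11, SE 0.156, limma adjusted p = 3.99e-05). The log2 ratio of Des to Vim fell by 0.61 (two-sided exact permutation p = 0.00932, adjusted over 5 ratios 0.0155). It did not pass with a pseudocount of 0.5 RPM (-0.54, adjusted p = 0.0631) or with title number 2 alone (-0.62, adjusted p = 0.179).

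Levels of different genes were compared per length, as RPM per kilobase of annotated exon. In the controls Actg2 was highest at 170.4 ± 11.1 (SD, n = 7), followed by Myl9 at 45.0 ± 7.78 and Acta2 at 22.9 ± 8.58, and this order held in each of the 7 libraries. Cnn3 followed at 3.14 ± 2.01 and Tpm2 at 3.13 ± 1.26, then Tagln at 2.41 ± 1.43, Tpm1 at 2.14 ± 0.421, Cnn1 at 1.26 ± 0.641, Myh11 at 1.23 ± 0.352 and Des at 0.705 ± 0.315. Cnn3 exceeded Tpm2 in 4 of 7 libraries, Tagln exceeded Tpm1 in 4 and Cnn1 exceeded Myh11 in 3, so these neighbours were not separated. The first 5 places were held by the same genes in the libraries labelled KO, where Cnn3 stood at 15.2 ± 5.86 and Tpm2 at 5.17 ± 1.99 (n = 6).

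Actg2 made up 67.8% ± 6.09 (SD, n = 7) of the summed level per length of the 10 genes in the controls and 45.2% ± 5.71 (n = 6) in the libraries labelled KO. Myl9 went from 17.8% ± 1.99 to 28.3% ± 2.80, Acta2 from 8.93% ± 2.65 to 12.9% ± 2.49 and Cnn3 from 1.22% ± 0.723 to 6.21% ± 2.19. For Actg2 the groups did not overlap, at 56.6% to 75.1% and 39.0% to 52.5%. These shares are parts of one sum, so a lower share of one gene raises those of the others, and they were not tested. The sum of the 10 genes in RPM spanned 383 to 486 in the controls and 366 to 546 in the libraries labelled KO.

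**Figure D2:**
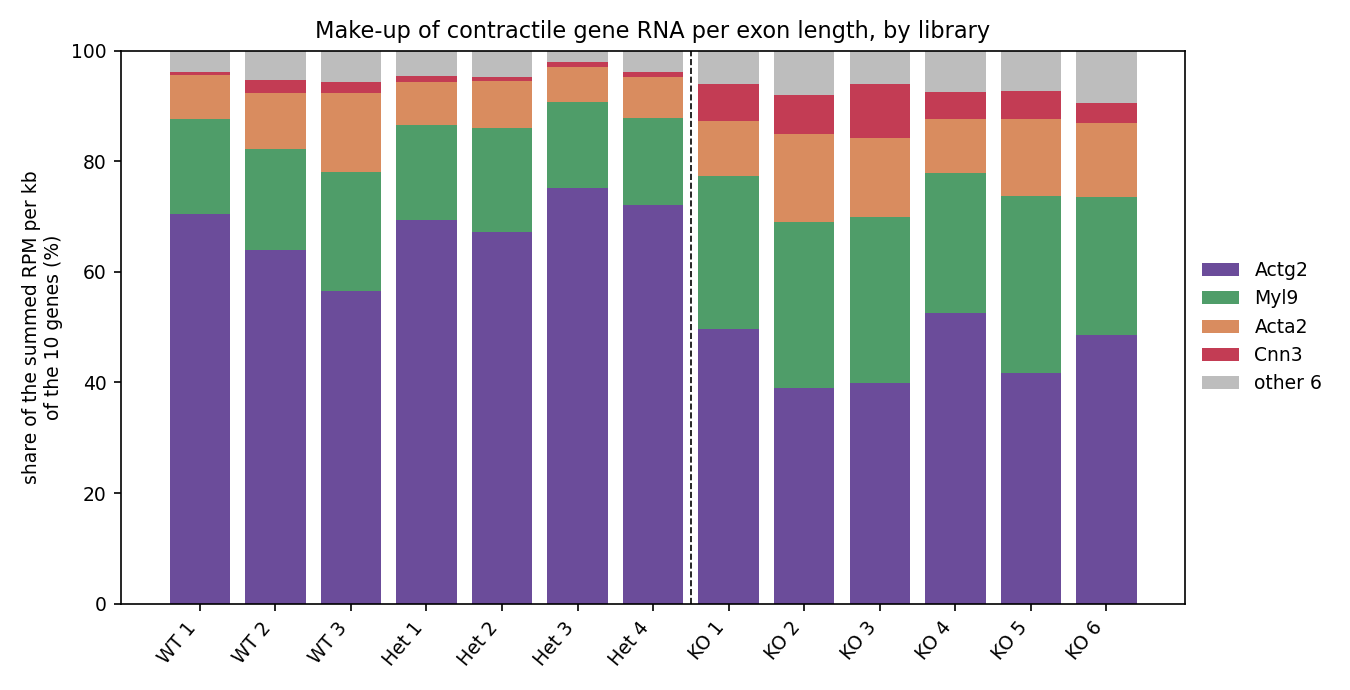
Share in percent of the summed RPM per kilobase of exon that each gene took in each library, with the 7 controls to the left of the dashed line and the 6 libraries labelled KO to the right. Actg2 held 56.6% to 75.1% in the controls and 39.0% to 52.5% in the libraries labelled KO, and Cnn3 held 0.421% to 2.48% and 3.50% to 9.75%.

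The control genotypes were also taken apart. Against WT alone, Cnn3 (1.93, SE 0.390, limma adjusted p = 0.00428) and Tpm1 (0.99, SE 0.197, adjusted p = 0.00392) rose and Actg2 fell (-0.64, SE 0.106, adjusted p = 0.00108). Over all genes 6.05% were higher and 3.34% lower in that comparison. Against Het alone, 6 of the 10 rose and 1 fell, where 16.9% of all genes were higher and 5.15% lower. The 6 were Cnn3 (2.50), Tpm1 (1.13), Tpm2 (1.03), Myh11 (0.83), Acta2 (0.73) and Myl9 (0.72), and Actg2 fell by 0.67 (limma adjusted p from 5.48e-05 to 0.0256). Both comparisons share the libraries labelled KO. Against WT, Acta2 differed by 0.12, Tpm2 by 0.24, Myh11 by 0.65 and Myl9 by 0.42, and none of these passed (limma adjusted p from 0.114 to 0.775). Myl9 passed without KO replicate 6 (0.51, adjusted p = 0.0390). The Myh11 call against Het was lost without Het replicate 1 (0.63, adjusted p = 0.116), Het replicate 3 (0.81, 0.0606) or KO replicate 2 (0.69, 0.0600), and with no filter on low values (adjusted p = 0.0544), median-of-ratios scaling (0.0715) or quantile normalization (0.189). The calls of Acta2 and Tpm2 against Het were lost with quantile normalization (adjusted p = 0.0635 and 0.0811).

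The difference between these comparisons is that between Het and WT. No gene of the 10 was called there with limma, and 0% of all genes were called in either direction. At an unadjusted p under 0.05 there were 2, Acta2 (-0.61) and Tpm2 (-0.79), each with limma adjusted p = 0.723, and limma-voom on reads called 0. For 9 of the 10 genes Het was below WT, and the median was -0.44 against -0.044 over all genes. Het replicate 3 held the lowest value of all 13 libraries for Acta2, Tagln, Des and Tpm2.

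**Figure D3:**
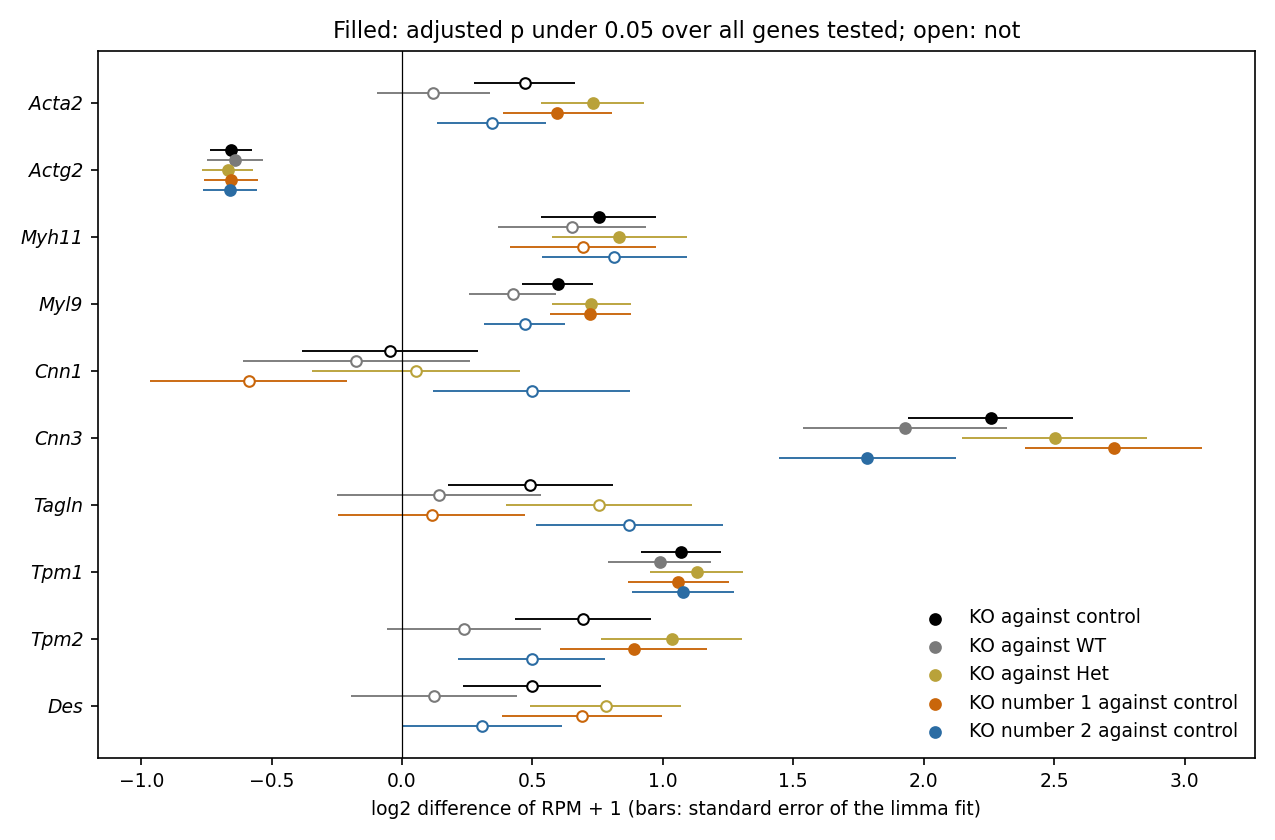
Log2 difference of RPM + 1 for each gene in 5 comparisons that share libraries, with bars of 1 standard error and filled points where the limma adjusted p over all genes was under 0.05. Actg2 lay between -0.67 and -0.64 in all 5, Tpm1 between 0.99 and 1.13 and Cnn3 between 1.78 and 2.73, and the points of Cnn1 fell on both sides of 0.

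The libraries labelled KO were compared with all controls by title number. For number 1, 5 of the 10 genes rose and 1 fell, and 17.4% of all genes were higher and 5.78% lower. The 5 were Cnn3 (2.73, SE 0.339), Tpm1 (1.06, SE 0.195), Tpm2 (0.89, SE 0.282), Myl9 (0.72, SE 0.156) and Acta2 (0.60, SE 0.207), with limma adjusted p from 1.64e-05 to 0.0432, and Actg2 fell by 0.65. The calls of Acta2 and Tpm2 were both lost without Het replicate 3, Het replicate 4 or KO replicate 2, and that of Acta2 also without Het replicate 1, Het replicate 2 or KO replicate 3. Both were also lost with no filter on low values, where the differences stayed the same and more genes were tested (adjusted p = 0.0995 and 0.0623). Median-of-ratios scaling (0.45 and 0.75) and quantile normalization (0.45 and 0.56) ended both calls as well. Without KO replicate 2 the Acta2 difference was 0.35 (adjusted p = 0.296) and the Tpm2 difference 0.58 (adjusted p = 0.212). For number 2, Cnn3 (1.78, SE 0.339, limma adjusted p = 0.00149) and Tpm1 (1.08, SE 0.195, adjusted p = 0.000989) rose and Actg2 fell by 0.66, where 8.48% of all genes were higher and 4.69% lower. Myh11 (0.81, adjusted p = 0.0596) and Myl9 (0.47, adjusted p = 0.0516) did not pass. Myh11 passed without WT replicate 2 (adjusted p = 0.0410) or KO replicate 2 (0.0381), and Myl9 without WT replicate 3 (0.0240) or KO replicate 6 (0.0281).

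Set against each other, the libraries labelled KO of number 2 and number 1 differed in none of the 10 genes by limma, where 0.154% of all genes were higher and 0.191% lower in number 2. At an unadjusted p under 0.05 there were 2, Cnn1 (1.08, SE 0.447, limma adjusted p = 0.319) and Cnn3 (-0.94, SE 0.401, adjusted p = 0.337), and limma-voom on reads called 0. The Cnn3 values of number 1 (50.3 to 67.1 RPM) lay above those of number 2 (21.1 to 40.2 RPM). Those of Cnn1 lay the other way, at 0.701 to 3.36 RPM in number 1 and 3.99 to 5.31 RPM in number 2. Only Het replicate 1 is a control of number 1. Against it, the 3 libraries labelled KO of number 1 were higher in Cnn3 (50.3 to 67.1 against 7.83 RPM) and Tpm1 (26.3 to 32.8 against 10.9 RPM). They were lower in Actg2 (141 to 188 against 251 RPM). With 1 control this was not tested, and the test within 1 number was made in number 2. There, with 3 libraries labelled KO and 6 controls, Cnn3 (21.1 to 40.2 against 3.24 to 19.6 RPM) and Tpm1 (26.4 to 38.0 against 10.9 to 18.1 RPM) were higher and Actg2 (150.4 to 181 against 251 to 295 RPM) lower without overlap, and the 3 passed. Among all genes in this comparison 5.36% were called higher and 3.97% lower, and 9.66% had every library labelled KO above every control and 5.01% below.

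To see which of the genes varied together apart from genotype, deviations from the mean of each genotype were correlated with those of Acta2 over the 13 libraries, in 9 pairs. Myl9 followed Acta2 (Pearson r = 0.85, permutation p = 0.00479, adjusted 0.0431; Spearman coefficient 0.86, permutation p = 0.00238, adjusted 0.0214). Without the 2 libraries farthest from the median of Acta2, WT replicate 3 and KO replicate 2, r was 0.74. Tpm2 had r = 0.64 (permutation p = 0.0098, adjusted 0.0441) and a Spearman coefficient of 0.59 (permutation p = 0.0362, adjusted 0.149), and r = 0.46 without the same libraries, so its relation rested in part on them. The other 7 did not pass, with r from -0.28 for Actg2 to 0.58 for Cnn3. Over the 9 libraries of title number 2 alone, r was 0.84 for Myl9 and 0.62 for Tpm2. It was 0.87 for Tpm1, 0.77 for Tagln, 0.66 for Cnn1 and 0.58 for Cnn3. Negative values were found for Actg2 (-0.48), Myh11 (-0.45) and Des (-0.41). These values within title number 2 were not tested. The 4 libraries of number 1 are too few for a value.

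The genes most like the mean of the 10 in these deviations, out of 10667 genes whose mean reached 5 RPM, were Cox7b (r = 0.92 over 13 libraries), Tspan31 (0.88), Plcb4 (0.86), Slc39a1 (0.86) and Cald1 (0.85). Cald1 codes for caldesmon, another actin-binding protein of smooth muscle, and Plcb4 for a phospholipase C. Actg2, looked at alone after its values were seen, was most like Morn3 (0.89), Chn2 (0.88), Oaz3 (0.87), Pwwp2b (0.86) and Hoga1 (0.86). Oaz3 codes for an antizyme of haploid germ cells. These are the highest values among many genes and are given as a description.

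The rest of the contractile pathway was followed through lists of related genes. For these and the marker lists below, the calls over all genes moved with the setting too. Of 16235 genes, 2994 were higher and 1003 lower as deposited. With median-of-ratios scaling 1712 and 1717 were, and with quantile normalization 1462 and 1532. With title number 2 alone 5.36% were higher and 3.97% lower. List counts in a setting belong beside these values, and shares without single libraries are not given here. Of 25 tested genes of the smooth muscle filaments, dense bodies and caveolae, 5 rose and 0 fell, with a median of 0.25. These 5 are 20% of the list, near the 18.4% of all genes called higher. There were 3 risers and 1 faller (Tns1) under median-of-ratios scaling and 2 risers and 1 faller (Hspb7) with quantile normalization. With title number 2 alone 1 rose, and without single libraries 3 to 6 rose. Cav1, the caveolar coat protein, rose from 6.21 ± 3.96 RPM (SD, n = 7) to 14.5 ± 3.76 RPM (n = 6), a difference of 1.32 (SE 0.352, limma adjusted p = 0.00937). Vcl, the adhesion protein vinculin, rose by 0.58 (SE 0.147, adjusted p = 0.00693). Smtn, smoothelin of contractile smooth muscle (0.94, adjusted p = 0.0427), and Mylk, the light chain kinase (0.31, adjusted p = 0.0469), passed narrowly. Each was lost with median-of-ratios scaling (adjusted p = 0.0888 and 0.330). With single libraries left out, the Smtn call held only without WT replicate 2 or 3, Het replicate 1 or 3 (0.61) or KO replicate 5, and that of Mylk only without WT replicate 1 or KO replicate 2 or 5. Elsewhere the adjusted p reached 0.0822 and 0.105. Lmod1, a leiomodin of smooth muscle, did not pass (0.39, adjusted p = 0.427).

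Of 15 tested regulators of the smooth muscle program 0 passed with limma, and their median was 0.34. At an unadjusted p under 0.05 there were 4 (Mkl1, Mkl2, Mef2d and Nr2f2), limma-voom called 1, with quantile normalization 1 fell (Klf4), and without single libraries 0 to 2 rose. Srf, serum response factor, had a mean of 28.3 ± 5.36 RPM over controls (SD, n = 7) and of 24.3 ± 5.72 RPM over libraries labelled KO (n = 6), a difference of -0.23 (limma adjusted p = 0.350). Myocd, its coactivator myocardin, was at 2.21 ± 0.749 and 1.596 ± 1.35 RPM (-0.40, adjusted p = 0.346). Mkl1, a related coactivator, differed by 0.38 (adjusted p = 0.0635) and passed with limma-voom (0.42, adjusted p = 0.0489) and without Het replicate 4 or KO replicate 1 (adjusted p = 0.0446 and 0.0480).

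Of 12 tested receptors and ligands of contraction 5 rose (41.7%, beside 18.4% of all genes) and 0 fell, with a median of 0.65 (3 rose with either scaling and 2 with title number 2 alone). Edn1, the precursor of endothelin 1, rose from 0.690 ± 0.811 to 3.43 ± 1.51 RPM (1.45, SE 0.314, adjusted p = 0.00201). Its control mean is under 1 RPM, so it was tested only because of its level in the libraries labelled KO. It counts among the 5 and the 12, so the share of 41.7% rests in part on it. Npr1, the atrial natriuretic peptide receptor, rose by 0.79 (SE 0.176, adjusted p = 0.00246). Ednra, an endothelin receptor, ranged from 2.63 to 27.4 RPM in the controls and from 5.31 to 34.2 RPM in the libraries labelled KO (0.99, adjusted p = 0.0999), and passed without Het replicate 1 (1.30, adjusted p = 0.0185) or KO replicate 5 (1.24, 0.0408).

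Broadly expressed relatives of the 10 genes also included risers, 7 of 15 (46.7%, beside 18.4% of all genes) with 0 lower and a median of 0.46 (3 with either scaling and 1 with title number 2 alone). Beside Vim, Tagln2, the transgelin of many cell types, rose by 0.95 (SE 0.225, limma adjusted p = 0.00409). Myh9 passed narrowly (0.87, adjusted p = 0.0441), and not with median-of-ratios scaling (0.74, adjusted p = 0.0904). With single libraries left out its call held only without WT replicate 1 or 2, Het replicate 4 or KO replicate 6 (elsewhere adjusted p up to 0.0943). The cytoplasmic actins did not pass: Actb was at 937 ± 51.2 and 1013 ± 98.1 RPM (0.11, adjusted p = 0.263), a sign that turned with median-of-ratios scaling (-0.045) and with title number 2 alone (-0.016), while Actb passed with quantile normalization (0.24, adjusted p = 0.0207), and Actg1 differed by 0.22 (adjusted p = 0.0838).

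Markers of the cells that could hold these transcripts were followed in the same way. Of 15 tested peritubular and stromal markers 7 rose (46.7%, beside 18.4% of all genes) and 0 fell, with a median of 0.82 (7 with either scaling, 3 with title number 2 alone), among them Col3a1 (1.40, SE 0.183, limma adjusted p = 1.98e-05), Dcn (1.10, SE 0.162, adjusted p = 6.21e-05) and Pdgfra (0.98, SE 0.217, adjusted p = 0.00246). Differences above 0 were found for 13 of the 15, with Lum (-0.44, limma adjusted p = 0.329) and Lhx9 (-0.16, adjusted p = 0.719) below 0. Pdgfrb did not differ (0.026, adjusted p = 0.969). Col1a1 did not pass (0.88, adjusted p = 0.0621), and of the fits without 1 library it passed without WT replicate 1 (adjusted p = 0.0446) or KO replicate 4 (0.0337). The summed level of the 18 listed was 133 to 248 RPM in the controls and 258 to 428 RPM in the libraries labelled KO. Of 6 tested pericyte and vascular muscle markers 3 rose (50%; median 0.88), among them Ebf1 (1.22, adjusted p = 0.0114) and Notch3 (1.23, adjusted p = 0.0341). Notch3 likewise entered the test only through the libraries labelled KO, and it counts among the 3 and the 6, so the 50% rests in part on it. Rgs5 (0.70, limma adjusted p = 0.106) and Mcam (0.50, adjusted p = 0.141) did not pass. With single libraries left out the Notch3 call held only without WT replicate 2, Het replicate 2, KO replicate 5 or KO replicate 6 (elsewhere adjusted p up to 0.0893). With quantile normalization 1 pericyte marker rose and 1 fell (Ndufa4l2), with no filter on low values 1 rose, with title number 2 alone 0 did, and 2 to 4 rose without single libraries. The 12 listed summed to 21.8 to 38.9 against 42.5 to 49.5 RPM. Of 14 endothelial genes 4 rose (28.6%; median 0.33), among them Kdr (1.89, adjusted p = 0.00107) and Cdh5 (1.57, adjusted p = 0.00191) but not Pecam1 (0.30, adjusted p = 0.637), with sums of 80.3 to 139 against 120.1 to 169 RPM. With either scaling 3 endothelial genes rose and 1 fell (Egfl7), and with title number 2 alone 1 rose and 1 fell.

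Sertoli cell markers rose in 12 of 18 (66.7%; median 0.70; sums 1920 to 3252 against 3322 to 5277 RPM) and Leydig cell markers in 12 of 13 (92.3%; median 0.91; sums 2957 to 5574 against 7339 to 12184 RPM), with 0 lower in both lists. With title number 2 alone 3 Sertoli and 11 Leydig markers passed. Among the genes named from all these lists, the calls of Vim, Edn1, Actn3, Col3a1, Dcn and Cdh5 held with title number 2 alone. Of these, Edn1 was tested only through the libraries labelled KO. The calls of the other 14 named risers (Mylk, Smtn, Vcl, Cav1, Npr1, Tagln2, Myh9, Ttn, Pdgfra, Notch3, Ebf1, Kdr, Cst12 and Cuzd1) were lost, with limma adjusted p from 0.0609 to 0.4996 in a fit with fewer libraries. Among these 14 the difference was close to that over all libraries for Smtn (0.93), Mylk (0.34), Tagln2 (0.93) and Cuzd1 (0.93). It was smaller for Notch3 (0.56), Cst12 (0.29), Npr1 (0.46), Vcl (0.41) and Myh9 (0.62). Smaller values were also found for Pdgfra (0.71), Ttn (0.69), Ebf1 (0.94), Kdr (1.51) and Cav1 (1.17). The part of any of these cells in the values of the 10 genes was not tested.

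**Figure D4:**
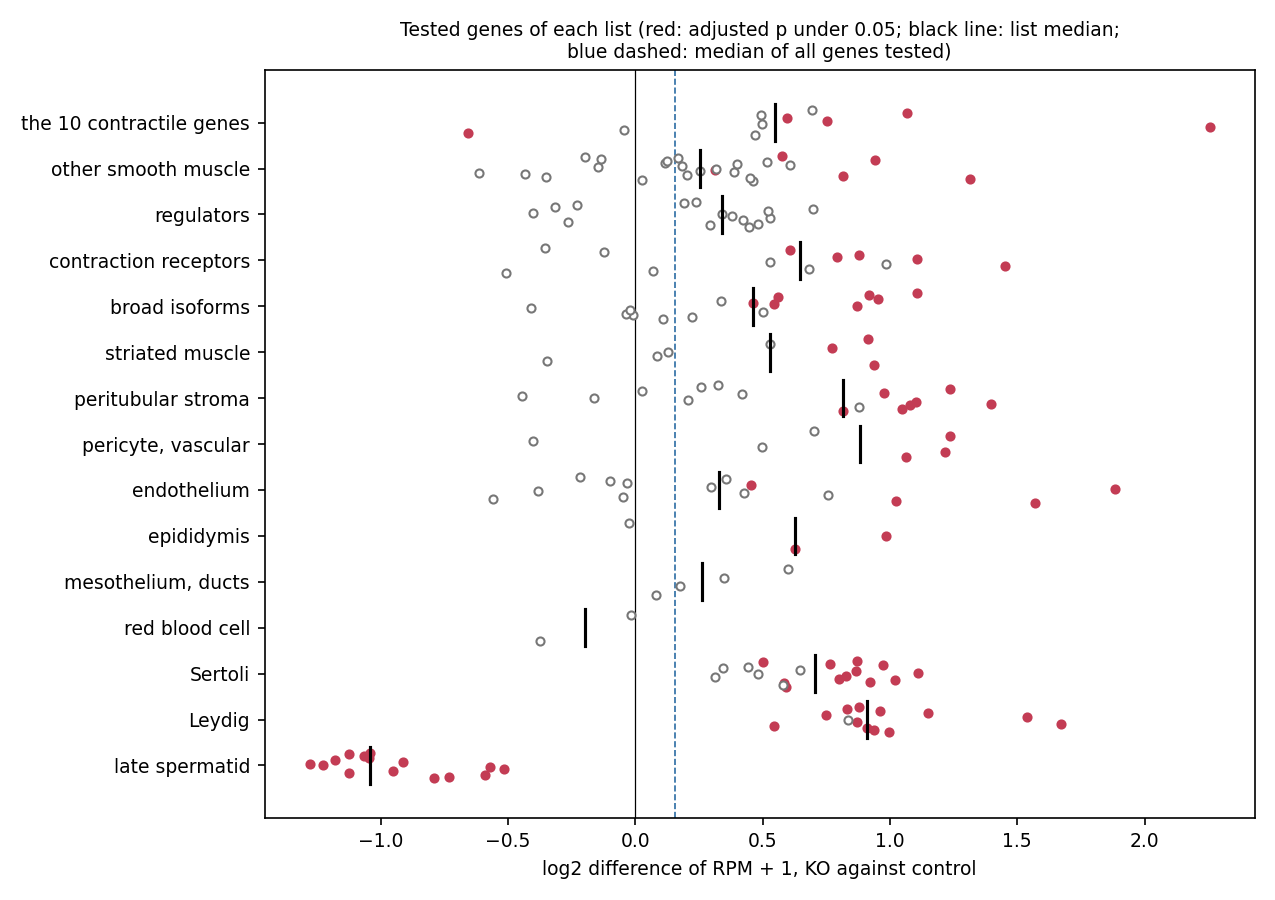
Log2 difference of RPM + 1, KO against control, of each tested gene by list, with red points where the limma adjusted p was under 0.05, black lines at list medians and a blue dashed line at the median of all genes (0.16). The 10 contractile genes span -0.66 for Actg2 to 2.26 for Cnn3, all 15 late spermatid genes lie below 0, and all 13 Leydig genes lie above 0.

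Tissue from outside the testis was looked for by its defining genes. For striated muscle, Ckm and Myh4 reached at most 3.17 and 1.26 RPM. Of 7 tested striated muscle genes 3 rose (42.9%, beside 18.4% of all genes), 2 with either scaling and 1 with title number 2 alone. Among the 3 were Actn3 (0.94, limma adjusted p = 0.00436) and the titin gene Ttn (0.91, adjusted p = 0.00214). The 20 listed summed to 43.0 to 63.7 RPM in the controls and to 69.5 to 93.3 RPM in the libraries labelled KO. Of the epididymal genes, Lcn5, Lcn8, Sva and Defb2 had 0 reads in all 13 libraries, which allows up to 0.27 to 0.665 RPM in a library (3 reads, for counting error only). Adam7 had 1 read in 1 library. Among the 3 tested, 2 rose (66.7%, beside 18.4% of all genes), Cst12 (0.63, limma adjusted p = 0.00430) and Cuzd1 (0.98, adjusted p = 0.0187). The call of Cuzd1 was lost without KO replicate 5 (adjusted p = 0.0534) or with quantile normalization (0.75, adjusted p = 0.0778). Cst12 was at 69.8 ± 13.3 RPM in the controls (SD, n = 7), where the 14 listed summed to 59.8 to 92.5 RPM. The cells that hold Cst12 were not tested. Of the markers of mesothelium and ducts, called mesothelial here, Upk3b had at most 6 and Msln at most 8 reads. The tested genes of that list were Lrrn4, Krt8, Krt18 and Foxj1, and those of the red blood cell list Hba-a1 and Alas2. In the controls Hba-a1 was at 2.30 ± 1.67 and Alas2 at 27.5 ± 6.00 RPM (SD, n = 7). With all libraries and the values as deposited, 0 of the 4 mesothelial and 0 of the 2 red blood cell genes passed with limma or limma-voom. Without KO replicate 4, 1 mesothelial gene passed. At an unadjusted p under 0.05 there were 1 (Lrrn4) and 0. Alas2 fell with quantile normalization. The median was 0.26 for the mesothelial and -0.20 for the red blood cell genes.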

How the data were processed

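The deposited table holds log2 RPM for each gene and library, reads scaled to a library total by the authors. Per the submitters' processing notes, FastQC 0.11.8, Trim Galore 0.6.6 and mm10 were used. The strand setting, like the aligner, counter and annotation, is information not given in the sources used here. Genes without reads carry the deposited value of 0.9 read and were set to 0. Above it, at least 99.96% of values in each library were whole reads (within 0.01 read), and listed genes held 90.4% to 95.0% of the depth.

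The table was analysed with limma 3.58.1 in R 4.3.3 (linear model with mean-variance trend on log2(RPM + 1), genes whose mean reached 1 RPM, two-sided). Fold changes are of RPM + 1 and understate changes of low genes. Ratios and Wfdc15a were tested by exact permutation, correlations by 100000 permutations within genotypes. Exon lengths came from GENCODE release 21 for mouse. Scripts were tested on simulated data.

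The 10 genes and all lists were chosen with earlier results of these data known. Named genes outside the 10 are the first 3 of each list and the 2 called members with the lowest adjusted p, not all of which are given. The alternatives were another pseudocount, no filter on low values, median-of-ratios scaling, quantile normalization, limma-voom on recovered reads, replicate block, the title number as a term or held at 2, and each library left out. For the other lists they were added after seeing the data. One list of related genes is not reported here.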

Additional observations from a re-analysis of the deposited data

Results flagged for a closer look

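The values of 10 genes were checked for a library far from the others of its group in 30 groups of 4 Het, 6 KO or 7 control libraries, and chance gives such a library in about 1 of 20 groups. There were 2. Acta2 in WT replicate 3 was at 89.9 RPM, where the other 6 controls lay between 35.4 and 57.5 RPM. Myl9 in WT replicate 3 was at 71.0 RPM, where the other 6 controls lay between 45.1 and 55.1 RPM. Without this library the KO against control difference of Acta2 passed the test (0.62, limma adjusted p = 0.00918).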

How the results depend on the processing

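In KO against control, Cnn3, Tpm1 and Actg2 passed under all alternatives run. With title number 2 alone 2 of the 10 genes rose, where 5.36% of all genes were called higher (4 and 18.4% as reported). Leaving out single libraries gave 4 to 6 of the 10. Cnn1 turned in sign with the title number as a term (0.10), with title number 2 alone (0.60) and over left-out libraries (-0.22 to 0.20). Against Het, 3 rose with quantile normalization (5 to 7 over left-out libraries). Against WT, Acta2 was at -0.0045 with median-of-ratios scaling and at -0.11 to 0.39 over left-out libraries. For number 1, 3 genes rose with no filter, 3 with median-of-ratios scaling and 3 with quantile normalization (3 to 5 over left-out libraries). For number 2, 2 to 3 rose over left-out libraries. The calls over all genes moved with the settings too. In KO against control, 2994 of 16235 genes were called higher as deposited, 1712 with median-of-ratios scaling and 1462 with quantile normalization. For the counts over left-out libraries, against Het and for number 1, the shares over all genes are not given here. A loss among the 10 genes and a loss over all genes cannot be told apart there. With title number 2 alone the ratio differences were 0.97 (Acta2 to Actg2), -1.17 (Cnn1 to Cnn3) and -0.62 (Des to Vim), each with exact permutation adjusted p = 0.179, and 0.081 (Myh11 to Myh9, -0.39 to 0.054 over left-out libraries). Des to Vim was at -0.54 with a pseudocount of 0.5 RPM. Wfdc15a was at -0.15 with title number 2 alone (exact permutation p = 0.5) and at -0.86 to -0.46 over left-out libraries (p from 0.00253 to 0.0821). Actb was at -0.045 with median-of-ratios scaling and at -0.016 with title number 2 alone. The causes of these changes were not tested. With title number 2 alone there were fewer libraries, and the part of this in the lost calls was not tested either. Low counts limit Cnn1, Des and Tagln, with as few as 5, 8 and 9 reads.

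Replicate numbers are shared between genotypes, but same-numbered libraries did not deviate together (10 pairs, correlations -0.0835 to 0.126, 1 over 0.1). With replicate number as a block, 4 of the 10 genes rose and 1 fell in KO against control. Over all 16235 genes tested, 2845 were then called higher and 985 lower. Against WT, Myl9 also passed with the block (0.51, limma adjusted p = 0.0479). For number 2 the block left 0 genes higher and 0 lower, since only KO replicate 4 shares its number with a control, in Het. Among all genes it left 23 higher and 3 lower. Outside the 10 genes, with the block Col1a1 (1.05, limma adjusted p = 0.00912) and Ednra (1.57, 0.0132) passed, and Cuzd1 (0.85, 0.0591), Smtn (1.06, 0.0557) and Mylk (0.32, 0.0931) did not. The block called 2 regulators and 1 mesothelial gene higher (0 without it), 1 epididymal gene higher (2 without it), and 3 smooth muscle genes higher and 1 lower (5 and 0 without it).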
